A study of Mus musculus with 14 samples.

Results

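Malat1, Neat1, Clk1, Clk4, Luc7l2, Luc7l3, Srsf5, Srsf7, Rbm5 and Ddx5 are 10 of the 49585 genes measured, and encode RNAs and proteins of the nuclear bodies and machinery that process messenger RNA. They were chosen by name, with their levels in all libraries and their correlation over the libraries already known, so their levels are given as a description. Mouse muscle of the hind limb was profiled by RNA-seq, with 3 libraries in each of 4 groups. These were wild-type (WT) muscle without injury, Myf6 knockout (KO) muscle without injury, WT muscle after injury and KO muscle after injury. Myf6 (MRF4) belongs to the myogenic basic helix-loop-helix transcription factors, and the series concerns its part in signalling from muscle fibres to muscle stem cells. The labels state neither the KO allele, the strain, the age or the sex of the mice, nor the kind of injury or the time after it. Each library carries an animal-like number with the letter L (uninjured) or R (injured), and the 3 numbers of a genotype recur with both letters, so the numbers are read here as naming animals. WT and KO have different numbers, so genotype cannot be told apart from litter or batch. ChIP-seq peaks of Myf6 carrying a Flag tag, called in primary myotubes from 1 library and 1 control, gave a readout that the choice of genes did not use.

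Malat1 and Neat1 are long non-coding RNAs that stay in the nucleus, where Malat1 gathers in nuclear speckles and Neat1 builds the paraspeckles around itself. Speckles store splicing factors, among them the SR proteins (here Srsf5 and Srsf7), which recognise exons and are released for use when kinases such as Clk1 and Clk4 phosphorylate them. Clk1 transcripts can themselves be held in the nucleus with introns unspliced, and several SR protein genes limit their own output through exons that mark the transcript for decay. The libraries were made with a kit that enriches polyadenylated RNA, whereas the main form of Malat1 and the long form of Neat1 end without a poly(A) tail.

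The promoters of Malat1, Clk4 and Srsf5 are shown for 3 reasons: the start of Malat1 faces the strongest Myf6 peak beside the nuclear RNAs, Clk4 had the lowest adjusted p of the 10 genes, and Srsf5 alone had every KO library below every WT library in both comparisons. Each window runs from 250 bases before to 50 bases after the start of the gene and is written in the direction of the gene. Sequences and coordinates are from RefSeq (GRCm38.p6). Capitals mark E-boxes, CANNTG, the motif that myogenic factors of the Myf6 family bind.
Malat1 (chr19:5802623-5802922, minus strand): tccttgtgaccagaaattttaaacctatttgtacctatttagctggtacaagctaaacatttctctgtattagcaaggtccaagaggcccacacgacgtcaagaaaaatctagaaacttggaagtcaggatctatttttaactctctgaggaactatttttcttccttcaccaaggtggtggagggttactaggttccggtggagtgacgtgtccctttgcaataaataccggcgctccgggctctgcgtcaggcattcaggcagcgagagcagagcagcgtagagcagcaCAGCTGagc
Clk4 (chr11:51262864-51263163, plus strand): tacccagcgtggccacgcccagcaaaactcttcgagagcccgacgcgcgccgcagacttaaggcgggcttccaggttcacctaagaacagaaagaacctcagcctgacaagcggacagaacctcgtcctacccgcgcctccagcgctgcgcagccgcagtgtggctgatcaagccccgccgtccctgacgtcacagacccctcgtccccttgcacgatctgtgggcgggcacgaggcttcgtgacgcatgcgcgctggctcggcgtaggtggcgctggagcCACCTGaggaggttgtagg
Srsf5 (chr12:80945249-80945548, plus strand): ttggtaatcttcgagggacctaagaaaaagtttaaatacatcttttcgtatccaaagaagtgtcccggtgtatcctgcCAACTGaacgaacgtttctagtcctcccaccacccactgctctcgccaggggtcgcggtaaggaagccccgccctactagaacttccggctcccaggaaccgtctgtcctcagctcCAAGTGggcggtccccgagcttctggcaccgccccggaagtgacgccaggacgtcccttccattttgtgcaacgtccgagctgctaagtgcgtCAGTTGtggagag
Of the 10 genes, 8 had an entry, with 10 windows in all because Ddx5 had several. On either strand, 6 of the 10 windows held an E-box, against 72.3% of 32851 promoter windows of the same length. The E-box CAGCTG was in 1 of the 10, that of Malat1, against 16.3% of all windows, and it overlaps CANNTG by definition. TGACGT, the core of a cyclic AMP response element, was in 2 of the 10, those of Clk4 and Malat1, against 7.51%, and CCAAT was in 3 of the 10, those of Ddx5, Luc7l2 and Rbm5, against 37.4%. These are matches of letters only.

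The libraries held 1880087 to 49392472 reads recovered from the deposited RPM values (reads of a gene per fixed total of assigned reads), so that 3 reads, taken as the limit of detection, equalled 0.0607 to 1.596 RPM. The targeted gene, Myf6, was at 25.0 to 121 RPM in the 6 WT libraries and at 1.86 to 3.46 RPM in the 6 KO libraries, injured KO replicate 2 included at 2.88 RPM. That library stood apart from the other KO libraries before any test. Over 13337 genes its mean correlation was 0.941 with the WT libraries and 0.912 with the other KO libraries, and no other KO library was nearer to WT than to KO. It also had the highest share of reads on mitochondrial genes, 23.2%, against 3.63 to 15.3% in the other 5 KO libraries and 8.35 to 22.3% in WT. The limma results on injured KO muscle are therefore also given without it, for each gene beside the count of calls. Markers of muscle fibres, 8 of 8 detected in every library, matched the labelled tissue, while Myf5 and Calcr of the 4 satellite cell markers and Ptprc and S100a8 of the 6 macrophage and neutrophil markers were at 0 in at least 1 library. In bulk muscle, fewer cells of a type and less RNA per cell cannot be told apart, and since the labels do not say in words that the libraries come from separate animals, p-values measure the spread between these libraries.

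In uninjured muscle all 10 genes were lower on average in KO, by 2.13-fold (Neat1) to 4.09-fold (Clk4) in mean RPM. For 9 of the 10, all but Neat1, every KO library was below every WT library, as for 15.5% of the 12460 genes tested. In injured muscle KO replicates 1 and 3 were below every WT library for all 10 genes, but KO replicate 2 was below WT for Srsf5 alone. That complete separation in injured muscle was seen for 8.63% of 12625 genes, and the split of KO replicate 2 from the other KO replicates for 17.7%. The genes were chosen with these values known, so the counts describe them and test nothing.

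**Figure D1:**
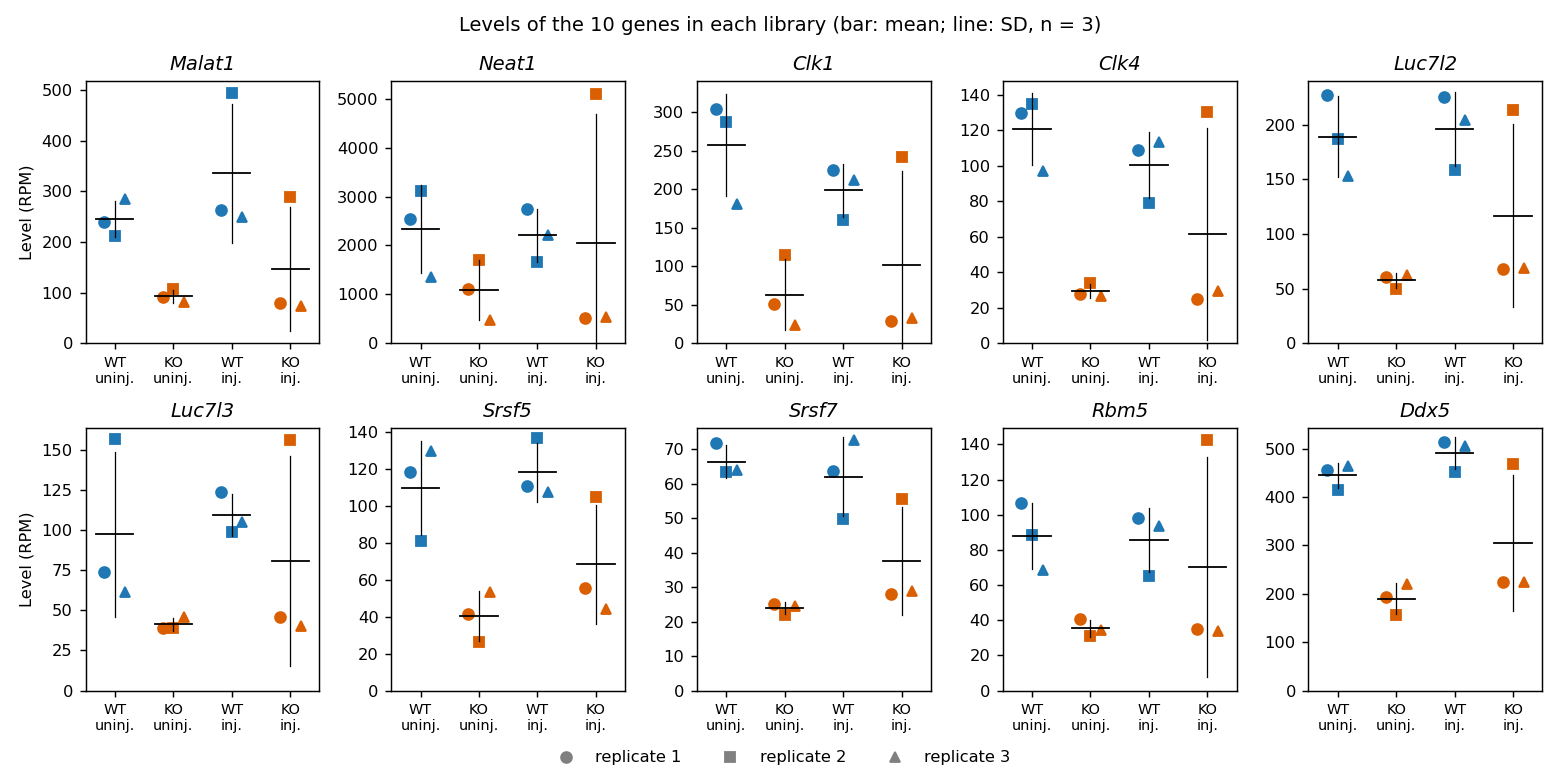
Level of each of the 10 genes in RPM (vertical axis, linear, from 0) in the 12 libraries, by group; symbols are replicates 1 to 3, bars the means and lines the SD (n = 3). Uninjured KO libraries lie below uninjured WT for all genes but Neat1, and the square of injured KO replicate 2 lies far above the other injured KO libraries in every panel.

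Among the long non-coding RNAs, Malat1 (ENSMUSG00000092341.2, chr19:5795690-5802672), the RNA of nuclear speckles, was at 240.1, 213 and 284 RPM in uninjured WT, against 90.8, 106 and 81.1 RPM in uninjured KO replicates 1 to 3. After injury it was at 264, 494 and 249 RPM in WT, against 80.4, 288 and 73.4 RPM in KO. The uninjured groups were clearly apart, and after injury KO replicate 2 was above 2 of the 3 WT libraries. The log2 change, KO minus WT on the log2(RPM + 1) scale, was -1.39 in uninjured muscle (SE 0.25, limma adjusted p 0.0580) and -1.41 in injured muscle (SE 0.55, limma adjusted p 0.455), so neither passed the threshold of 0.05. All adjusted p-values here are from limma with Benjamini-Hochberg adjustment over all genes tested.

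Neat1 (ENSMUSG00000092274.2, chr19:5824708-5845480), the scaffold RNA of paraspeckles, was at 2547, 3107 and 1348 RPM in uninjured WT, against 1108, 1707 and 474 RPM in uninjured KO. It was at 2744, 1666 and 2211 RPM in injured WT, against 512, 5103 and 531 RPM in injured KO. Neat1 was the 1 gene whose uninjured groups overlapped, since KO replicate 2 was above WT replicate 3, and its level in injured KO replicate 2 was the highest of the 12 libraries. Its KO-minus-WT log2 value was -1.19 (SE 0.49, limma adjusted p 0.311) without injury and -0.95 (SE 0.86, limma adjusted p 0.744) with it. Without uninjured KO replicate 3 the uninjured value was -0.68. The SD of injured KO, 2645 RPM, exceeded the group's mean of 2049 RPM.

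The kinases had the largest fold differences between uninjured KO and WT. Clk1 (ENSMUSG00000026034.17, chr1:58411988-58424088) was at 305, 287 and 181 RPM in uninjured WT, against 51.0, 115 and 24.5 RPM in uninjured KO. With injury it was at 225, 159.8 and 212 RPM in WT, against 28.7, 243 and 32.7 RPM in KO. The uninjured KO libraries were all lower but differed widely among themselves, and the log2 change of -2.24 had an SE of 0.50 and a limma adjusted p of 0.104. In injured muscle KO replicate 2 was above every WT library, and the log2 change was -1.66 (SE 0.77, limma adjusted p 0.527).

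Clk4 (ENSMUSG00000020385.16, chr11:51263114-51281770), the closest relative of Clk1, was at 129, 135 and 97.2 RPM in uninjured WT, against 27.9, 33.8 and 26.7 RPM in uninjured KO. Here the KO libraries were close together, at a mean of 29.5 ± 3.79 RPM (SD, n = 3) against 120.4 ± 20.2 RPM (SD, n = 3) in WT. Clk4 fell, with a difference of -1.99 on the log2 scale (estimated SE 0.26, limma adjusted p 0.0215). In injured muscle it was at 109, 78.9 and 113 RPM in WT, against 25.1, 130.3 and 29.3 RPM in KO, where replicate 2 was above every WT library. The log2 change after injury was -1.09 (SE 0.59, limma adjusted p 0.575). How reads shared by these paralogs were counted is not given in the sources used here, so their values are uncertain to that extent.

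Luc7l2 and Luc7l3 encode proteins that associate with the U1 small nuclear ribonucleoprotein, which marks the start of an intron. Luc7l2 (ENSMUSG00000029823.16, chr6:38551334-38609953) was at 227, 187 and 153 RPM in uninjured WT, against 60.7, 50.1 and 62.7 RPM in uninjured KO. It fell by 1.68 on that log2(RPM + 1) scale (SE 0.26, limma adjusted p 0.0427). In injured muscle Luc7l2 was at 225, 159 and 204 RPM in WT, against 68.0, 213 and 68.7 RPM in KO, a difference of -0.95 on the log2 scale (estimated SE 0.45, limma adjusted p 0.538). Again KO replicate 2 alone was within the WT range.

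Luc7l3 (ENSMUSG00000020863.15, chr11:94291073-94322329) varied most within uninjured WT, at 74.1, 156 and 61.3 RPM, against 38.9, 38.8 and 45.8 RPM in KO. The highest of these values came from WT replicate 2, the library with the fewest reads. In injured muscle Luc7l3 was at 124, 98.6 and 105 RPM in WT, against 45.6, 156 and 40.0 RPM in KO. Its log2 changes were -1.10 (SE 0.36, limma adjusted p 0.218) and -0.71 (SE 0.49, limma adjusted p 0.659), and neither passed. Without WT replicate 2 the uninjured change was -0.70.

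Of the SR proteins, Srsf5 (ENSMUSG00000021134.17, chr12:80945495-80950507) was at 119, 80.8 and 129.9 RPM in uninjured WT, against 41.3, 26.4 and 53.3 RPM in uninjured KO. In injured muscle it was at 111, 137 and 108 RPM in WT, against 55.9, 105 and 44.5 RPM in KO. The groups did not overlap in either state, but in injured muscle KO replicate 2 was barely under the lowest WT library. The log2 changes were -1.45 (SE 0.33, limma adjusted p 0.112) and -0.87 (SE 0.32, limma adjusted p 0.427).

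Srsf7 (ENSMUSG00000024097.10, chr17:80200080-80207369) had even levels within the uninjured groups, 71.8, 63.3 and 64.1 RPM in WT and 25.1, 21.96 and 24.7 RPM in KO. In injured muscle it was at 63.8, 49.8 and 72.6 RPM in WT, against 28.0, 55.6 and 29.0 RPM in KO. Its log2 changes were -1.44 (SE 0.25, limma adjusted p 0.0580) and -0.77 (SE 0.30, limma adjusted p 0.456). The uninjured groups were far apart, and in injured muscle KO replicate 2 was above 1 WT library.

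Rbm5, an RNA-binding protein that regulates splicing of transcripts of the cell death machinery, and Ddx5, an RNA helicase that also acts as a coactivator of MyoD, complete the set. Rbm5 (ENSMUSG00000032580.12, chr9:107740495-107771007) was at 106, 88.3 and 68.7 RPM in uninjured WT, against 40.8, 31.1 and 34.4 RPM in uninjured KO. After injury it was at 98.3, 65.1 and 93.5 RPM in WT, against 34.8, 143 and 33.9 RPM in KO, the last group again holding both the highest and the lowest values. Its log2 changes were -1.27 (SE 0.27, limma adjusted p 0.0960) and -0.60 (SE 0.55, limma adjusted p 0.7503).

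Ddx5 (ENSMUSG00000020719.14, chr11:106780355-106789185) was at 456, 414 and 463 RPM in uninjured WT, against 193, 156 and 219.7 RPM in uninjured KO. In injured muscle it was at 514, 452 and 505 RPM in WT, against 224, 468 and 224 RPM in KO. The uninjured groups were well apart, whereas injured KO replicate 2 lay between the WT libraries. The log2 changes were -1.24 (SE 0.24, limma adjusted p 0.0723) and -0.77 (SE 0.31, limma adjusted p 0.464).

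In total 2 of the 10 genes, Clk4 and Luc7l2, passed the threshold in uninjured muscle, where 0.281% of genes did so in either direction and 0.152% did so as lower in KO. The median log2 change was -1.41 over the 10 genes and -0.18 over all genes tested. The number that passed depended on the test: DESeq2 on recovered reads called 7 of the 10 (5.32% of genes), and edgeR called 0 of the 10 (0.441% of genes), although 9 had an unadjusted p under 0.05, as 16.5% of genes. In limma, leaving out WT replicate 1, 2 or 3 gave 0 of 10, against 0.0415%, 0.0823% and 0.0414% of genes. Leaving out KO replicate 1 gave 0 of 10 (0.0247% of genes), and leaving out KO replicate 3 gave 6 of 10 (0.69% of genes). Without KO replicate 2, limma called 0.261% of all genes, near the 0.281% of the full fit. In the authors' deposited table, Clk4, Luc7l2, Srsf5, Srsf7 and Ddx5 had a q-value under 0.05. These were 5 of the 10, against 1.43% of the 23129 genes with a log2 fold change there.

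In injured muscle limma called 0 of the 10, against 0.269% of genes, with 4 of the 10 at an unadjusted p under 0.05, as 10.3% of genes. DESeq2 and edgeR also called 0 of the 10, against 3.38% and 0.261% of genes, with 3 and 0 of the 10 at an unadjusted p under 0.05, as 13.3% and 10.1% of genes. For Clk1 DESeq2 gave no p there, so it could call 9 of the 10. The authors' deposited table likewise had 0 of the 10 at a q-value under 0.05, against 0.893% of genes. The median log2 change was -0.91 for the 10 genes and 0.01 for all genes. Without KO replicate 2, 10 of 10 passed, where 19% of 12312 genes passed in either direction and 9.54% as lower in KO. The log2 changes without that library were -2.04 for Malat1, -2.05 for Neat1, -2.64 for Clk1, -1.83 for Clk4, -1.49 for Luc7l2, -1.33 for Luc7l3, -1.22 for Srsf5, -1.08 for Srsf7, -1.27 for Rbm5 and -1.12 for Ddx5, with limma adjusted p between 0.00138 and 0.0124. Without KO replicate 1 or 3 instead, the median of the 10 was -0.63 or -0.62. In both, 0 of 10 passed, as did 0% of all genes. Over the 13 alternatives run for each gene (12 for Clk1), the highest adjusted p ranged from 0.969 to 0.9999.

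**Figure D2:**
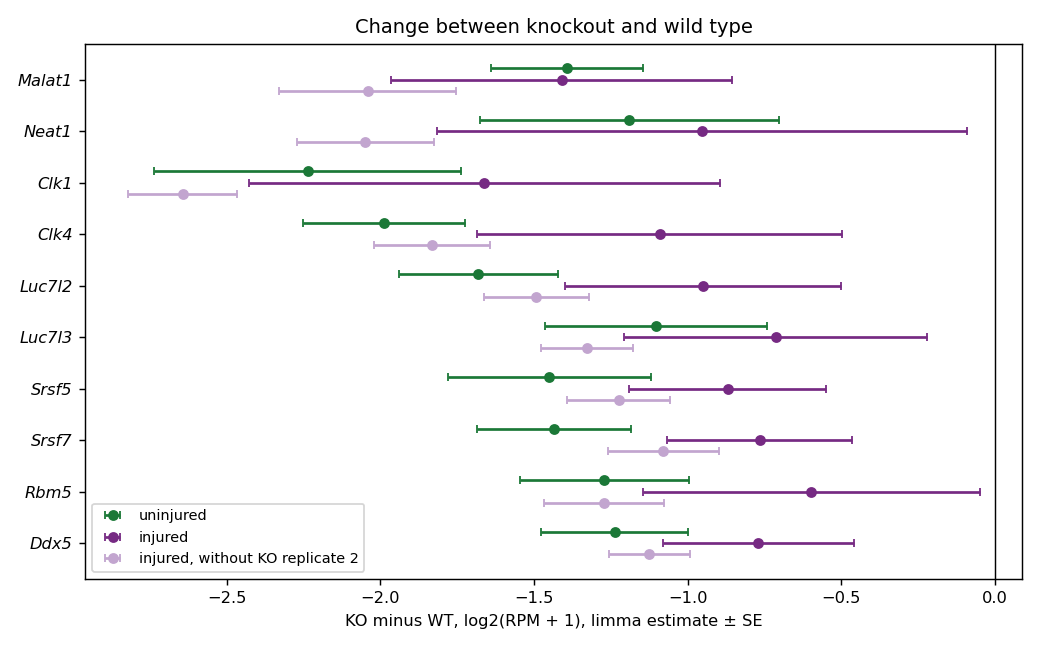
KO minus WT difference on the log2(RPM + 1) scale (horizontal axis) for each of the 10 genes, as limma estimates with their SE, in uninjured muscle, injured muscle and injured muscle without KO replicate 2. All estimates lie below 0, and the error bars of injured muscle shorten for 10 of 10 genes when that library is left out.

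Injured KO replicate 2 exceeded the mean of the other injured KO libraries for each of the 10 genes, but by unequal factors. Neat1 was 9.78-fold and Clk1 7.90-fold above that mean, Clk4 4.79-fold, Rbm5 4.15-fold, Malat1 3.75-fold, Luc7l3 3.64-fold and Luc7l2 3.12-fold, while Srsf5, Ddx5 and Srsf7 were 2.09-fold, 2.09-fold and 1.95-fold above it. Against the mean of injured WT the same library was at 2.31 times for Neat1 and 1.66 times for Rbm5, and at 0.858 times for Malat1 and 0.887 times for Srsf5. Single WT libraries also differed from that mean by gene. Injured WT replicate 2 was above it for Malat1 (494 against 336 RPM) and below it for Clk4 (78.9 against 100.4 RPM).

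The injury comparison set libraries of both deposited tables side by side, each scaled to its own total. In WT, the median log2 change of the 10 genes, injured minus uninjured, was 0.01, with 5 genes higher and 5 lower, and its sign followed the scaling: it was 0.22 with upper quartile scaling and -0.09 where reads outside mitochondrial genes set the scale. By animal number the medians in WT were -0.06, -0.39 and 0.22. In KO they were 0.00, 1.75 and 0.08, where the animal numbered as replicate 2 had all 10 genes higher after injury, by 1.07 to 2.16. The median of all genes in that animal was also the highest of the 6, 0.65, against -0.02 to 0.21 in the others. The median over KO in the fit was 0.62, and 0.0098 without injured KO replicate 2. Limma called 0 of the 10 genes in WT and 0 in KO, as it called 0% of the 13337 genes. At an unadjusted p under 0.05 there were 0 and 1 of the 10, against 1.29% and 3.51% of genes. In both genotypes edgeR and DESeq2 called 0 of the 10, as they called 0% of all genes. These fits did not pair libraries by animal number. With the number as a block, limma gave in KO an unadjusted p of 0.041 for Luc7l2 and 0.047 for Ddx5, as 6.67% of genes had one under 0.05. The limma adjusted p was 0.565 for both.

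Ddx5 was the 1 gene of the 10 that was higher after injury in 3 of 3 WT and 3 of 3 KO animals. Luc7l2 and Srsf7 were higher in 3 of 3 KO animals and in 1 of 3 WT animals. Over all genes, 19.8% were higher in 3 of 3 KO animals and 17.5% in 3 of 3 WT animals, so 3 and 1 of the 10 are close to what genes in general showed. The interaction of genotype and injury, which tests whether the injury change differs between KO and WT, had a median log2 value of 0.58 over the 10 genes and 0.057 without injured KO replicate 2. It passed for 0 of the 10 in limma, edgeR and DESeq2, with 0 of the 10 at an unadjusted p under 0.05 in each. In limma 0% of all genes passed and 1.56% had an unadjusted p under 0.05. In edgeR and DESeq2 0% of all genes passed as well, and 1.85% and 2.74% had an unadjusted p under 0.05. A difference in the injury response of these genes between genotypes was thus not detected with 3 libraries a group.

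Ratios within a library do not depend on the scaling of that library. The ratio of Clk1 to Clk4 reads stayed between 1.86 and 2.35 in the 6 WT libraries. In uninjured KO it was 1.83, 3.40 and 0.918, and in injured KO 1.15, 1.86 and 1.12. The spread was wider in KO, on both sides of the WT range without injury, and injured KO replicate 2 again took a value next to WT.

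The ratio of Neat1 to Malat1 varied from 3.37 to 17.7 over all libraries, with no separation of the groups. Its extremes were both replicate 2 after injury, the lowest in WT and the highest in KO. The ratio of Srsf5 to Srsf7 was 1.20 to 2.16 in KO and 1.28 to 2.75 in WT, and the ranges overlapped. Luc7l2 to Luc7l3 was 1.29 to 1.72 in KO and 1.20 to 3.07 in WT.

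**Figure D3:**
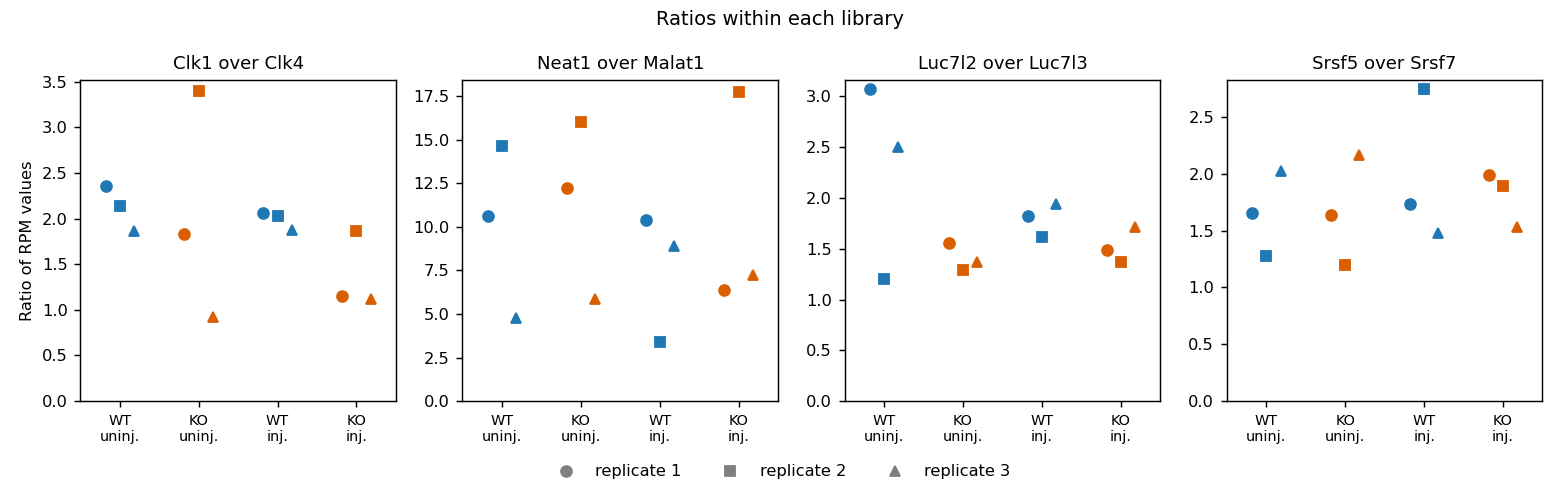
Ratio of the RPM values of 2 genes within each library (vertical axis, linear, from 0) for the 4 gene pairs named above each panel, by group, with symbols for replicates 1 to 3. The 6 WT libraries lie between 1.86 and 2.35 for Clk1 over Clk4, and the KO libraries between 0.918 and 3.40.

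Over the 12 libraries the 45 pairs of the 10 genes had a median Pearson's r of 0.867 on the log2(RPM + 1) scale, from 0.525 (Neat1 and Srsf5) to 0.978 (Luc7l2 and Ddx5). These correlations were part of how the genes were chosen, and the points share libraries, scaling and the genotype difference. Clk1 tracked Clk4 (r = 0.946, Spearman's rho = 0.958) and Neat1 (r = 0.934, rho = 0.923), and Srsf5 tracked Ddx5 (r = 0.962, rho = 0.783). Malat1 and Neat1, the nuclear RNAs, had r = 0.751 and rho = 0.636. The 2 libraries farthest from the median of 1 gene of each pair were then left out, by Clk1, Neat1, Srsf5 and Malat1 respectively. After that r was 0.933, 0.874, 0.934 and 0.608 for these 4 pairs in the same order.

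Much of this agreement was between groups and with 1 library. After each library's group mean was subtracted, the median r was 0.745 over the 12 libraries and 0.0685 once injured KO replicate 2 was left out. Within the 6 WT libraries the median r was 0.291, with pairs from -0.94 to 0.97. Within the 6 KO libraries it was 0.8995, and -0.182 in the 5 without injured KO replicate 2. With group means kept, leaving that library out gave a median r of 0.863 over 11 libraries.

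**Figure D4:**
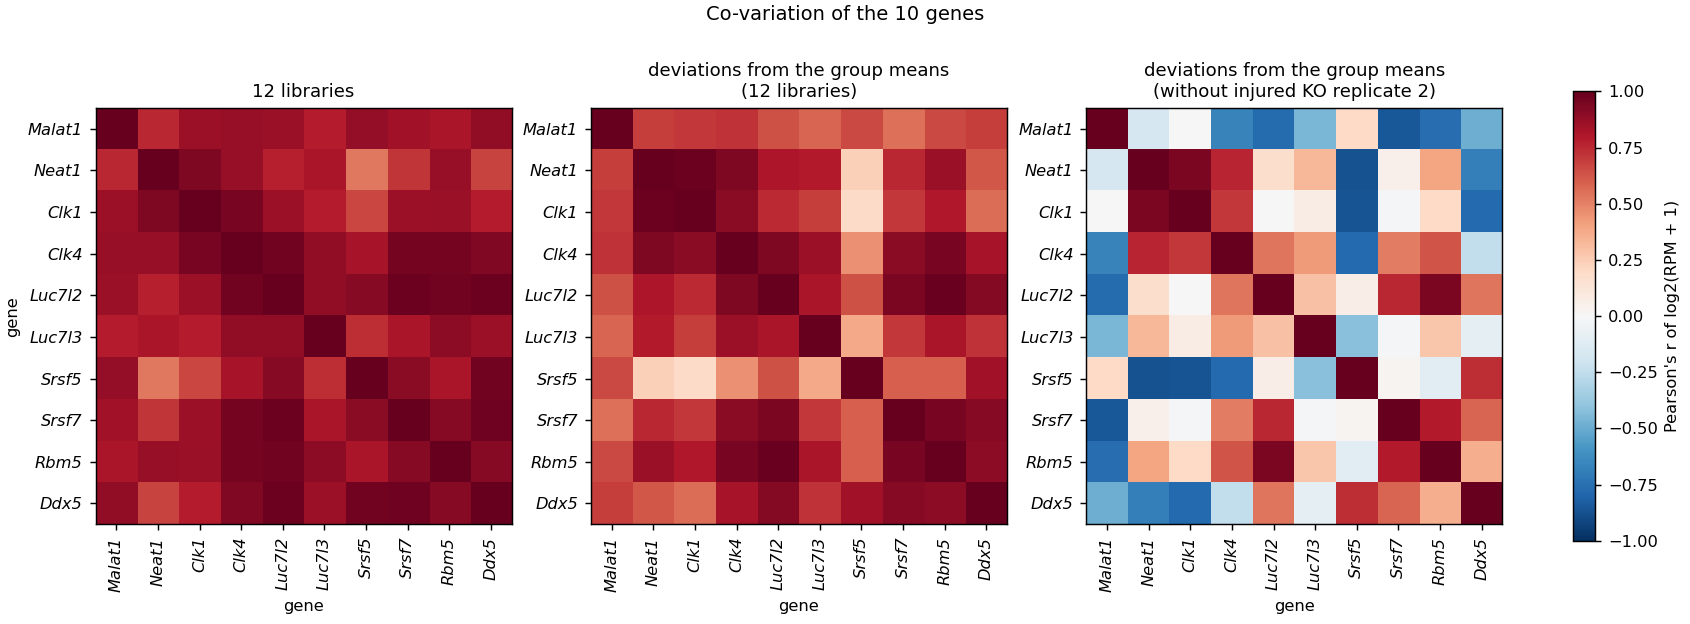
Pearson's r between each pair of the 10 genes on the log2(RPM + 1) scale (colour, from -1 to 1) over the 12 libraries, over the deviations from the 4 group means, and over those deviations without injured KO replicate 2. The median over the 45 pairs is 0.867, 0.745 and 0.0685 in the 3 panels.

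Of 9169 genes with a mean of at least 5 RPM, 293 (3.20%) correlated above 0.9 with the mean standardised level of the 10 genes, to which the 10 themselves contribute, and 8 of the 10 did so. The 10 genes outside the set with the highest correlation were Ccnl1, Tia1, Appl2, Srek1, Ccnt2, Fnbp4, Pfas, Paxbp1, Zfp445 and mt-Tn, with r from 0.992 down to 0.983. Without injured KO replicate 2, or without uninjured KO replicate 2, 6 of these 10 remained among the top 10. Ccnl1 encodes cyclin L1 of nuclear speckles, Tia1 a splicing and stress granule protein, Srek1 a splicing protein rich in arginine and serine, and Ccnt2 a cyclin of transcription elongation.

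Among them Ccnl1 fell in uninjured KO (log2 change -1.99, limma adjusted p 0.0444), as did Fnbp4 (log2 change -1.99, limma adjusted p 0.0323) and mt-Tn (log2 change -3.36, limma adjusted p 0.00783), and the other 7 did not pass. Ccnl1 was at 56.7, 45.7 and 33.4 RPM in uninjured WT, against 11.9, 10.5 and 8.81 RPM in KO. In injured muscle it was at 52.1, 35.98 and 50.8 RPM in WT, against 11.99, 52.6 and 9.29 RPM in KO. It was picked for its correlation over these libraries, so a pattern like that of the 10 genes follows from the choice. Over 13 alternatives its uninjured adjusted p ranged from 0.00018 to 0.484.

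The 5 genes with the most opposite pattern were Clptm1 (r = -0.98), Macrod1 (r = -0.96), Gpd1 (r = -0.96), Des (r = -0.95), which encodes the muscle filament protein desmin, and Kars (r = -0.95), a tRNA synthetase. Gpd1, an enzyme of glycerol phosphate metabolism, was at 332, 375 and 388 RPM in uninjured WT, against 593, 575 and 700.4 RPM in uninjured KO. In injured KO it was at 654, 373 and 600.0 RPM, which, like its levels without injury, the choice by correlation entails. Its log2 change in uninjured muscle, 0.77, did not pass (limma adjusted p 0.196).

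The pathways around the 10 genes were read from 9 further lists with 101 genes in all, which exclude the 10. In uninjured muscle limma called 1 listed gene, Ccnl1. Of 14 SR proteins and related speckle proteins tested, 0 passed, 14 had an estimate below 0 and 11 were lower at an unadjusted p under 0.05, as were 10.7% of all genes. The median of that list was -1.09, DESeq2 called 6 of the 14 and edgeR 1. Over all genes DESeq2 called 5.32% and edgeR 0.441%. These shares and the 10.7% also stand beside the uninjured counts of each list below. Pnisr, a speckle protein rich in arginine and serine, had the largest change, at 84.2, 63.3 and 90.4 RPM in WT and 25.6, 13.1 and 27.5 RPM in KO (log2 change -1.85, SE 0.34, limma adjusted p 0.0646).

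Among the kinases of SR proteins other than Clk1 and Clk4, 0 of 8 passed in limma and 3 had an unadjusted p under 0.05 (2 lower and 1 higher). DESeq2 called 2, of which only 1 was lower in KO, and edgeR 0. Their median was -0.51, and Prpf4b, a kinase of the spliceosome, had the largest change (log2 change -1.32, limma adjusted p 0.155). Of the 9 U1 and splice site factors, 0 passed in limma, 5 were lower at an unadjusted p under 0.05, DESeq2 called 3 and edgeR 1, with a median of -0.73. Prpf39, which helps U1 to engage its splice site, was at 67.0, 39.4 and 45.6 RPM in WT, against 16.5, 9.13 and 10.7 RPM in KO (log2 change -1.98, limma adjusted p 0.0580).

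Of 21 hnRNP proteins, which package nascent RNA, 0 passed in limma and 6 were lower at an unadjusted p under 0.05, with a median of -0.40 and Ptbp2 at -1.09. DESeq2 called 1 of them and edgeR 0. Of 16 paraspeckle proteins, the partners of Neat1, 0 passed in any of the 3 tools and 2 had an unadjusted p under 0.05 in limma, with a median of -0.46. Nudt21, a cleavage factor subunit, had their largest estimate, -1.45, which rested on uninjured KO replicate 2, at 0.0787 RPM against 5.82 and 9.001 RPM in the other 2, and it was -0.47 at its smallest with 1 library left out.

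Of 10 nuclear DEAD and DEAH box helicases, 0 passed in any of the 3 tools, 1 had an unadjusted p under 0.05 in limma and the median was -0.41. Ddx17, the closest relative of Ddx5, had a log2 change of -1.04 (limma adjusted p 0.126). Of 9 RBM family factors 0 passed in limma with 3 at an unadjusted p under 0.05, DESeq2 called 2 and edgeR 0, and the median was -0.60, with Rbm25 at -1.43 (limma adjusted p 0.0580). The 6 speckle cyclins and kinases had a median of 0.01, with estimates from -1.99 to 0.58, and Ccnl1 alone passed, with 2 at an unadjusted p under 0.05. DESeq2 called 2 of them and edgeR 0.

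Of the other nuclear long non-coding RNAs, 6 of 7 were tested, all 6 were below 0 with a median of -1.15, and 0 passed in limma, with 3 at an unadjusted p under 0.05. DESeq2 called 1 and edgeR 0. Rian, a maternally expressed RNA of an imprinted cluster, was at 13.7, 5.85 and 9.78 RPM in uninjured WT, against 3.23, 0 and 5.31 RPM in uninjured KO (log2 change -1.78, limma adjusted p 0.263), and its change was -0.99 without uninjured KO replicate 2. In injured muscle limma called 0 genes in each of the 9 lists. At an unadjusted p under 0.05, 5 of 14 SR and speckle proteins, 2 of 21 hnRNP proteins, 2 of 16 paraspeckle proteins, 1 of 8 kinases and 1 of 6 nuclear long non-coding RNAs were lower, 1 of 9 U1 and splice site factors was higher, and 0 in the other lists differed, against 5.26% of all genes that were lower at that p and 10.3% in either direction. DESeq2 called 2 SR and speckle proteins there, and 1 gene each among the paraspeckle proteins, the nuclear long non-coding RNAs and the hnRNP proteins, whereas edgeR called 0. Without KO replicate 2, limma called 9 of 14 SR and speckle proteins, 5 of 9 U1 and splice site factors, 4 of 5 nuclear long non-coding RNAs and 4 of 21 hnRNP proteins as lower, against 9.54% of all genes. It also called 4 of 16 paraspeckle proteins, 3 of 8 kinases, 3 of 9 RBM factors, 2 of 6 speckle cyclins and kinases and 1 of 10 helicases as lower, and 1 gene each of the paraspeckle proteins, kinases, RBM factors and helicases as higher.

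**Figure D5:**
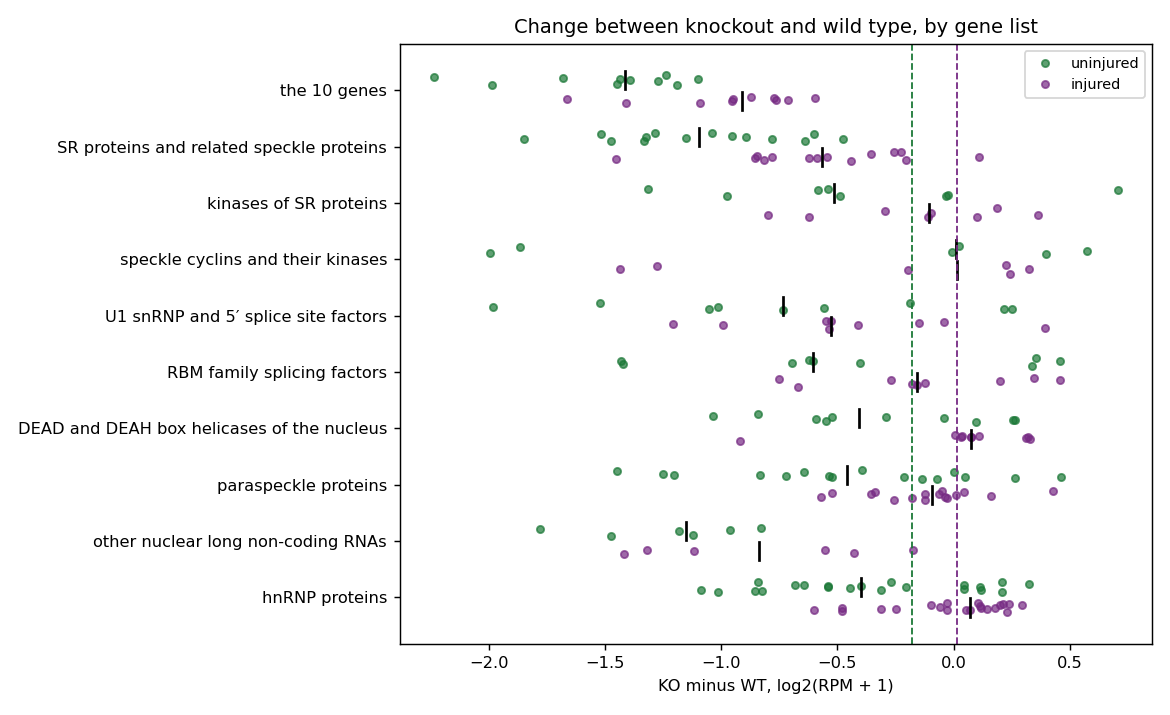
KO minus WT difference on the log2(RPM + 1) scale (horizontal axis) of each tested gene, in the 10 genes and in 9 lists of related genes, in uninjured and injured muscle; black bars are list medians and dashed lines the medians of all genes, -0.18 and 0.01. In uninjured muscle the 10 genes have a median of -1.41, the SR and speckle proteins -1.09 and the hnRNP proteins -0.40.

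Several other measures also differed between the libraries. The summed level of 8 muscle fibre markers was 133290 to 140823 RPM in uninjured WT and 174898 to 195552 RPM in uninjured KO, without overlap. In injured muscle the sum was 139055 to 172298 RPM in WT and 126481 to 172722 RPM in KO, and these ranges overlapped. It was lowest of all in injured KO replicate 2, at 126481 RPM. RPM values of a library sum to a fixed total, so the levels of different genes are not independent. The part of this in the results was not tested. With upper quartile scaling the uninjured median was -1.11 over the 10 genes, with all 10 below 0, while the median of all genes moved by 0.27 to 0.09. Scaling to reads outside mitochondrial genes gave -1.57 over the 10 genes and moved the median of all genes by -0.14.

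The mitochondrial share was lowest in KO replicates 1 and 3, at 6.76% and 3.63% without injury and 4.95% and 4.30% with it. These libraries had low levels of the 10 genes. The share was highest in injured KO replicate 2, at 23.2%. It did not follow the 10 genes in every library. Uninjured KO replicate 2, at 15.3%, had a higher share than uninjured WT replicate 3, at 13.8%, and yet low levels of 9 of the 10. Schwann cell markers, 4 of 4 detected, summed to 1113 RPM in injured KO replicate 2 and to 80.2 to 630.3 RPM elsewhere. That library also had the highest sums of endothelial markers, 489.6 RPM, and of red blood cell markers, 583.2 RPM. For the remaining marker lists it was not the highest. Adipocyte markers summed to 359 to 568 RPM in uninjured WT and 535 to 1186 RPM in uninjured KO, and endothelial markers to 223 to 283 and 256 to 302 RPM. The ranges of uninjured WT and KO overlapped for these and the other marker lists, 8 in all besides muscle fibres. The part of these measures in the results was not tested.

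The Flag-Myf6 peak list from myotubes held 12898 peaks with a median fold enrichment of 7.68, the authors' values, from 1 library without a replicate. A peak summit lay inside 2 of the 10 genes, Neat1 and Luc7l3, against 14.1% of 34328 genes, and within 20000 bases of 3 of the 10, against 30.7%. The strongest beside the nuclear RNAs, at chr19:5810597-5810930, had a fold enrichment of 9.49 and was between Malat1 and Neat1, 8149 bases upstream of the start of Malat1 and 13887 bases from the near edge of Neat1. A peak at chr19:5839739-5839889 inside Neat1 had a fold enrichment of 4.73, and another at chr19:5846566-5846695, 1141 bases past its far edge, had 4.53. Of all peaks, 91.0% and 92.6% had a higher fold enrichment than these. Luc7l3 held a peak at chr11:94312783-94312973 with a fold enrichment of 11.5.

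The other 7 genes, Clk1, Clk4, Luc7l2, Srsf5, Srsf7, Rbm5 and Ddx5, had 0 peaks within 20000 bases, and 0 peaks overlapped the 10 promoter windows. Clk4 and Luc7l2, which passed the limma threshold in uninjured muscle, were among these genes, and Luc7l3, which had the strongest peak, did not pass. The share of the 10 genes with a peak within 20000 bases was close to that of all genes. A link between peaks and changes in level was not tested. The peaks were called in cultured myotubes and the RNA came from whole muscle.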

How the data were processed

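RNA was extracted with Trizol and libraries were made with the TruSeq RNA v2 kit, per the labels' protocols. The submitters' processing notes name HISAT2 2.1.0, SAMtools, featureCounts, DESeq2, Bowtie 1.1.0 and MACS2 2.1.0.20140616 and the builds mm10 and GRCm38.p5, with no role or order. Strand use and the handling of reads shared between genes are not given in the sources used here, and the kit does not mark strand, so reads of antisense or overlapping genes cannot be told apart. The authors deposited RPM values per library in 1 table per injury state, together with their own log2 fold change (WT over KO), its standard error, p-value and q-value. The deposited peak list gives the pileup signal, the fold enrichment ratio and −log10 of the q-value of each peak, per the file headers.

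The low RPM values were whole multiples of 1 read (100% of values within 0.1 read), so reads were recovered for the count-based alternatives. Each comparison was fitted with limma 3.58.1 (R 4.3.3, eBayes with a trend) on log2(RPM + 1), keeping genes that reached 1 RPM in 3 or more of the fitted libraries. The scale understates changes of low genes. P-values were two-sided and adjusted by Benjamini-Hochberg over all genes tested, with a threshold of 0.05. KO against WT used its own 6 libraries, and the injury comparisons and the interaction used all 12. Alternatives were edgeR 4.0.16 and DESeq2 1.42.0 on recovered reads, upper quartile scaling, scaling to reads outside mitochondrial genes, a pseudocount of 0.1, no filter, a replicate block and leaving out each library in turn. The functions were tested on simulated data. Intervals are not given, and the limit of 3 reads covers counting error only.

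The 10 genes, the 9 related lists and the marker lists were chosen with earlier results of these data known. The genes named are the 10, every listed gene with an adjusted p under 0.05 or otherwise the one with the largest absolute change per list, and the 10 most and 5 least correlated with the mean of the 10. Gene positions, peak distances and promoters are from RefSeq tables of GRCm38.p6, which shares chromosome coordinates with the other GRCm38 releases.

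Whether replicate numbers pair libraries was checked by the correlation of same-numbered deviations from the group means. Between genotypes it was 0.04, 0.26 and 0.37 in uninjured and -0.45, -0.60 and -0.30 in injured muscle. Within WT, where a number is read as 1 animal, it was 0.28, -0.23 and 0.02, and within KO 0.02, 0.50 and 0.63.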

Additional observations from a re-analysis of the deposited data

How the results depend on the processing

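The median log2 change of the 10 genes kept its direction in both genotype comparisons under the 13 alternatives of each, and no called value reversed its sign. How many of the 10 passed in uninjured muscle, 2 in limma, was 7 with DESeq2, 0 with edgeR, 0 without a filter, 1 with a pseudocount of 0.1, 7 when scaled to non-mitochondrial reads, 0 with upper quartile scaling and 0 to 6 with 1 library left out. Over all genes the count, 35 (0.281%), was 663 (5.32%) with DESeq2, 55 (0.441%) with edgeR and 1 (0.00432%) without a filter. It was 20 (0.161%) with a pseudocount of 0.1, 205 (1.63%) when scaled to non-mitochondrial reads and 42 (0.341%) with upper quartile scaling. With 1 library left out it was 3 to 84. The share of the 35 calls that was higher in KO was 45.7%. That share was 76.2% with upper quartile scaling and 15.6% when scaled to non-mitochondrial reads. In injured muscle the count of the 10, 0, ranged from 0 to 10 with 1 library left out, and that over all genes, 34, was 427 with DESeq2, 19 without a filter and 0 to 2343 with 1 library left out. The ends 10 and 2343 are without injured KO replicate 2, which also set the median log2 change of the 10 genes at -1.41 (range -1.41 to -0.62), the injury change in KO at 0.0098 (range 0.0098 to 0.87) and the interaction at 0.057 (range 0.057 to 0.83). The count of all genes changed by injury in KO was 0 to 1 with 1 library left out. Median co-variation, 0.867, was 0.748 with Spearman's rho, 0.745 within groups and 0.850 to 0.894 with 1 library left out, and 6 to 10 of the 10 most similar genes were shared. With the replicate number as a block, 10 of the 10 genes and 752 genes in all passed in uninjured muscle, and 0 of the 10 and 0 genes in all in injured muscle. The numbers are not shown to pair WT with KO libraries, since the same-numbered correlations were not all above 0.1, so these counts are not used in the report. For the injury comparisons, where the number is read as the animal, the block left 0 genes called in WT, in KO and in the interaction. The cause of these differences was not tested. In uninjured WT replicate 2, values under 1.596 RPM rest on fewer than 3 reads.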

Other observations

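A mitochondrial transfer RNA gene beside mt-Tn, the last of the 10 most similar genes, was read after its values had been seen. The mt-Tn gene, for the asparagine tRNA, was at 11.3, 13.3 and 7.91 RPM in uninjured WT, against 0.114, 0.157 and 0.117 RPM in uninjured KO, which there rests on 3, 2 and 5 reads. In injured muscle mt-Tn was at 9.15, 4.23 and 9.87 RPM in WT, against 0.348, 11.3 and 0.405 RPM in KO. Its neighbour mt-Tc, for the cysteine tRNA, was at 94.1, 147 and 76.3 RPM in uninjured WT, against 1.45, 4.49 and 1.12 RPM in uninjured KO. After injury mt-Tc was at 81.8, 36.6 and 119 RPM in WT, against 2.49, 119 and 2.61 RPM in KO. Both were thus low in 5 of the 6 KO libraries and high in injured KO replicate 2, which for mt-Tn follows from its choice by correlation with the 10 genes.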
